A study of Bos taurus and Cervus elaphus with 24 samples.

Results

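The calgranulins S100A8, S100A9 and S100A12 were followed in the blood of cattle and deer. They were represented by every non-control probe whose gene name in the array files is one of those 3 symbols, 3 of 16959 gene names on a cattle array, through 6 of its 43653 probes, 1 for S100A8, 2 for S100A9 and 3 for S100A12. The 3 genes had been picked because earlier work on these same data had them higher at peak lactation in Holstein-Friesian cattle and lower at peak lactation in deer, so the differences between states in those animals are given as a description, without a test. Where a gene has several probes, the one with the highest mean Cy5 signal over the 24 arrays stands for it and is called probe 1.

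Blood was drawn from 4 Holstein-Friesian cows (HF), 4 Polish Red cows (PR), both Bos taurus, and 4 deer (Cervus elaphus), each once in the dry period, when no milk is made before calving, and once at peak lactation. The study's text asks which transcripts differ between those states within each kind of animal. The labels name the material peripheral blood nuclear cells, taken into tubes that fix RNA at once, and give no treatment, age or genetic alteration for any of the 6 groups of 4 arrays. On every array Cy5 carried the animal's RNA and Cy3 carried a reference pooled from 20 cattle outside the groups, so each value below is a log2 ratio of animal to reference. Deer RNA was therefore read with probes designed on cattle sequence, against a cattle reference.

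S100A8 and S100A9 are small calcium-binding proteins that pair to form calprotectin, the most plentiful protein of the neutrophil cytosol. Calprotectin binds zinc, manganese and calcium, starves microbes of metals and, once released, signals through Toll-like receptor 4. S100A12, also called calgranulin C, is made by the same myeloid cells and is a ligand of the receptor AGER. In dairy cattle these proteins are followed in blood and milk as signs of neutrophil activation, for instance in udder infection.

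All the probes lie within one stretch of cattle chromosome 3 on build UMD 3.1, as the files place them. S100A8 probe 1 lies at chr3:17147825-17147884 on the plus strand. S100A12 probe 3 lies at chr3:17165036-17165095, probe 1 at chr3:17165169-17165228 and probe 2 at chr3:17165200-17165259, all on the plus strand, and probes 1 and 2 overlap by 29 bases. S100A9 probe 1 lies at chr3:17176551-17176610 on the minus strand. S100A9 probe 2, built on an expressed sequence tag, lies 2078 bases away at chr3:17178689-17178748 on the plus strand, the strand opposite to probe 1. The array files carry no exon annotation for these positions. Probes with coding sequence could still be told from their own letters, by a search for the EF-hand calcium-binding loop in an open reading frame. Such a loop was found in 1 S100A9 probe and 1 S100A12 probe, and in 0.11% of the 43653 probes of the array. Both sequences are shown because they sit on the calcium-binding part of the proteins and because their readings in deer differ widely. Capitals mark the 30 bases that encode the first 10 residues of the loop.
S100A9 probe 1: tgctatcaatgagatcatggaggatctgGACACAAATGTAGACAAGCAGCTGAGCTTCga
S100A12 probe 3: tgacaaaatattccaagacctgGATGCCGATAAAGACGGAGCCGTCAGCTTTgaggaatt
The capital stretches share 15 of their 30 bases position by position. S100A8 probe 1 and S100A12 probe 2 hold the polyadenylation signal AATAAA on the probe strand, as do 9.35% of the array's probes.

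The transcripts were bright. The mean Cy5 signal over the 24 arrays was 33162 intensity units for S100A8, 31702 for S100A9 probe 1 and 170522 for S100A12 probe 1, against array medians of 109 to 255 on 23 of the 24 arrays. No spot of the 6 probes was saturated or left out as an outlier. The exception in brightness was S100A9 probe 2, with a mean of 147 and a signal well above background on 22 of 24 arrays. That mean was raised by PR dry replicate 1, where the probe read 1431, against 57 to 244 on the other arrays. All 6 probes passed the filter on dim signals, by which a probe needed a clear Cy5 signal on 3 or more arrays of 1 group or another.

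Not every array was of equal quality. PR dry replicate 1 was bright throughout, with a median Cy5 signal of 2038 and 703 spots left out as outliers, where no other array lost more than 75. Spike-in ratios correlated with their expected values at 0.899 or more on 19 arrays, per the headers, but at 0.33 on PR dry replicate 1 and at 0.17 to 0.40 on both arrays of HF animal 2 and of HF animal 3. Markers of neutrophils were read well above background for 25 of the 26 listed genes on the array (CAMP was not), and those of monocytes for 12 of 12, T cells for 13 of 13, B cells for 9 of 9, NK cells for 9 of 9, platelets for 7 of 7 and red cells for 10 of 11. The neutrophil genes MMP8, FPR1 and FPR2 were not found by name.

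In HF, S100A8 in the dry period read -1.15, -1.28, -0.50 and -0.72 in animals 1 to 4, and at peak lactation -0.40, 1.02, 1.45 and -0.89. Animals 2 and 3 stood high in lactation, animal 4 was slightly lower than in its own dry period, and the groups overlapped. The mean difference was 1.21 ± 1.13 (SD over 4 animals), a ratio of 2.31-fold, with 3 of 4 animals higher.

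S100A9 in the same cows read -1.47, -1.92, -0.84 and -1.02 in the dry period and -0.66, 0.92, 0.65 and -0.55 at peak lactation. All 4 cows were higher in lactation and the groups did not overlap, although the gap between the highest dry and the lowest lactation value was smaller than either group's SD. The mean difference was 1.40 ± 1.05 (SD, n = 4 animals), or 2.64-fold.

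S100A12 read -0.52, -0.86, -0.09 and -0.22 in the dry HF cows and 0.17, 1.88, 1.55 and -0.40 in lactation. Again animals 2 and 3 were the high ones, animal 4 was lower, and the groups overlapped. The mean difference was 1.23 ± 1.25 (SD, n = 4 animals), or 2.34-fold. The other S100A12 probes differed by 1.03 ± 1.04 and 1.12 ± 1.03 (SD, n = 4 animals) and the dim S100A9 probe 2 by 0.57 ± 0.30.

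In HF, 3 of the 6 member probes had every lactation array above every dry array (both S100A9 probes and S100A12 probe 3), and 3.32% of the 33037 probes with complete values did so as well; the choice of the genes used this contrast, so nothing is read from that count. Over all tested probes limma called 3 of 33101 (0.00906%) between the states in HF. The size of the HF differences rested on animals 2 and 3, whose arrays had the low spike-in correlations. Without them the mean differences were 0.29 for S100A8, 0.64 for S100A9 and 0.26 for S100A12. The arrays of dry HF cows were all at position 1 of their slide and those of lactating HF cows at positions 3 and 4, so that position and state cannot be told apart within HF. In the model over all 24 arrays with position as a factor, the S100A8 difference was 0.80, S100A9 1.12 and S100A12 1.26.

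**Figure D1:**
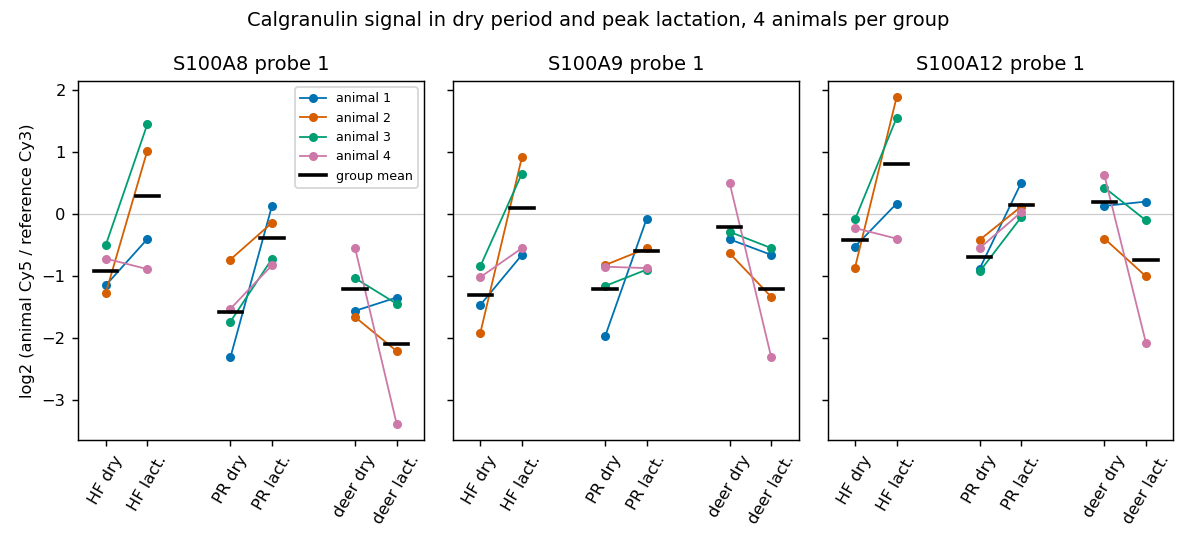
Log2 ratio of animal to reference for probe 1 of S100A8, S100A9 and S100A12 on each of the 24 arrays, with a line joining the dry and lactation array of 1 animal and a black bar at the mean of 4 arrays. Among the HF cows animals 2 and 3 climb most, all 4 PR animals are higher in lactation for S100A8 and S100A12, and deer animal 4 reaches the lowest values of the set, -3.38 for S100A8.

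The PR cows were not used to choose the genes, so there the same difference between states was tested. S100A8 in the dry period read -2.31, -0.73, -1.74 and -1.53 in animals 1 to 4 and at peak lactation 0.13, -0.14, -0.72 and -0.83. All 4 animals were higher in lactation, but the highest dry value lay above the lowest lactation value. The mean difference was 1.19 with a standard error of 0.47, or 2.28-fold, and with limma it did not pass (unadjusted p = 0.0205, adjusted p = 0.831 over 32590 probes).

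S100A9 in PR read -1.97, -0.82, -1.16 and -0.85 in the dry period and -0.08, -0.55, -0.90 and -0.87 in lactation. Only animal 1 had a large difference, animal 4 was level, and the groups overlapped. The mean difference of 0.60 with a standard error of 0.40 did not pass with limma (adjusted p = 0.843), and its 95% interval ran from -0.23 to 1.43.

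S100A12 in PR read -0.88, -0.42, -0.93 and -0.55 in the dry period and 0.51, 0.12, -0.05 and 0.03 in lactation. Every lactation value lay above every dry value. The mean difference was 0.85 with a standard error of 0.44 (1.80-fold), and with limma it did not pass (unadjusted p = 0.0665, adjusted p = 0.831). The standard errors and limma p-values given for PR rest on a spread pooled over all 6 groups, not on PR alone. For S100A12 the SD was 0.25 in each PR group, against 1.09 in lactating HF and 1.02 in lactating deer. Permuting the state labels over the 8 arrays, an exact test taken two-sided, gave p = 0.0286, the smallest it can give, with p = 0.0571 for S100A8 and p = 0.171 for S100A9; these are not adjusted for the other genes of the array. That test leaves aside that the arrays are pairs from 4 animals. With the states swapped only within animals, the exact permutation p was 0.125 for S100A8, 0.25 for S100A9 and 0.125 for S100A12, where 0.125 is the smallest that 4 pairs allow.

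In PR, 3 of the 6 member probes, all of S100A12, had groups that did not overlap, where 0.941% of the 32186 probes with complete values lay that way round. Those 3 probes read the same transcript on the same arrays, so they are 1 observation rather than 3. S100A12 probes 2 and 3 were 0.87 and 0.82 higher in lactation, while S100A9 probe 2 differed by 0.04. With limma 0 of 32590 probes (0%) passed the adjusted threshold of 0.05 between the states in PR, with 1861 under an unadjusted p of 0.05.

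PR animal 1, which includes the bright dry array, had the largest difference for each gene. Without both of its arrays the differences were 0.77 for S100A8, 0.17 for S100A9 and 0.66 for S100A12. On the 3 slides that held PR arrays of both states, the lactation minus dry difference of S100A8 was 2.44, 1.59 and 0.75. The same slides gave 1.90, 0.61 and -0.03 for S100A9 and 1.39, 1.05 and 0.54 for S100A12. Only the first of them held both arrays of 1 animal alone, those of animal 1. The next set dry animal 3 against lactating animal 2, and the last dry animal 4 against lactating animals 3 and 4. With array position as a factor in the model, S100A9 came to 0.32 and S100A8 to 0.83. The difference in S100A8 and S100A12 was thus in 1 direction on each slide, and that in S100A9 was not. On all 3 slides the dry PR array was at position 1 and the lactation arrays at positions 2 to 4. Position and state therefore cannot be told apart within these slides.

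In deer the values ran the other way. S100A8 read -1.56, -1.66, -1.03 and -0.55 in the dry period and -1.35, -2.21, -1.45 and -3.38 at peak lactation. S100A9 read -0.41, -0.63, -0.29 and 0.50 in the dry period and -0.66, -1.34, -0.55 and -2.31 in lactation. S100A12 probe 1 read 0.13, -0.39, 0.43 and 0.63 in the dry period and 0.20, -1.01, -0.10 and -2.08 in lactation. Deer 4 had the highest dry and the lowest lactation value of all 3 genes, and deer 1 differed little between the states.

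The mean deer difference was -0.90 ± 1.34 for S100A8, -1.01 ± 1.22 for S100A9 and -0.94 ± 1.21 for S100A12 (SD, n = 4 animals), and S100A9 alone was lower in all 4 deer. In deer 4 the differences were -2.84, -2.81 and -2.70 in the same order, against -0.25, -0.41 and -0.36 as the mean of the other 3 animals. None of the 6 probes had lactation and dry groups apart in deer, where 2.07% of the 33346 probes with complete values lay lower without overlap. With limma 2 of 33389 probes (0.00599%) were called between the states in deer. On the only slide with deer of both states, with 1 dry and 2 lactation arrays, the differences were -1.33 for S100A8, -1.20 for S100A9 and -1.37 for S100A12. That slide set the dry array of deer 3 against the lactation arrays of deer 1 and deer 4. The dry array was at position 1 and the lactation arrays at positions 2 and 3, so position and state cannot be told apart there.

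Set side by side over the 6 groups, the order of the means differed between the genes. S100A8 was highest in lactating HF at 0.29 ± 1.12, then in lactating PR at -0.39 ± 0.46, dry HF at -0.91 ± 0.36, dry deer at -1.20 ± 0.52, dry PR at -1.58 ± 0.65 and lactating deer at -2.10 ± 0.94 (SD, n = 4 each). Each group's range overlapped that of its neighbour in this order. S100A9 was highest in lactating HF at 0.09 ± 0.81, then in dry deer at -0.21 ± 0.49, lactating PR at -0.60 ± 0.38, dry PR at -1.20 ± 0.54, lactating deer at -1.21 ± 0.81 and dry HF at -1.31 ± 0.48. Here too every pair of neighbours overlapped. S100A12 was highest in lactating HF at 0.80 ± 1.09, dry deer at 0.20 ± 0.44 and lactating PR at 0.15 ± 0.25, followed by dry HF at -0.42 ± 0.34, dry PR at -0.69 ± 0.25 and lactating deer at -0.75 ± 1.02. Lactating PR and dry HF were the only neighbours in that order whose ranges did not overlap. They were only narrowly apart, with the lowest lactating PR value at -0.05 and the highest dry HF value at -0.09.

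Breeds and species were compared over both states, with each animal counted once as the mean of its dry and lactation arrays. The HF minus PR difference was 0.67 in S100A8 (standard error 0.28), 0.29 in S100A9 (0.19) and 0.46 in S100A12 (0.26). With limma none of these passed (adjusted p = 0.163, 0.371 and 0.306), and 6.34% of 33478 probes did. The HF means include the lactation arrays on which the genes were chosen as high, so this comparison is not independent of the choice. Without HF animals 2 and 3 the differences were 0.19, -0.02 and 0.03 in the same order. HF arrays lay on slides A to D and PR arrays on slides D to G, with slide D the only one that both share, so breed and slide cannot be told apart on the others.

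Deer were set against the mean of both cattle breeds. The animal means of S100A8 were -1.65 ± 0.36 in deer (SD, n = 4), -0.31 ± 0.61 in HF and -0.98 ± 0.37 in PR. The deer minus cattle difference was -1.002 with a standard error of 0.25, and S100A8 passed with limma (adjusted p = 0.00368), as did 60.5% of 35431 probes in either direction and 32.1% in the direction lower in deer. The S100A8 gap was all in the lactation arrays, where it was -2.05, against 0.04 in the dry arrays. The HF and deer lactation arrays are those on which the genes were chosen as high and low. Deer minus cattle is therefore not independent of the choice for any of the genes, and nothing is read from the S100A8 pass. The S100A8 gap also depended on the scaling. With arrays centred on their medians in place of loess it was -0.40 and did not pass with limma (adjusted p = 0.246). The median of all tested probes then shifted from 0.0049 to 0.18.

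S100A9 probe 1 differed by 0.04 between deer and cattle with a standard error of 0.16, and S100A12 probe 1 by -0.23 with a standard error of 0.23. Neither passed with limma (adjusted p = 0.837 and 0.401), and the 95% intervals ran from -0.32 to 0.40 and from -0.73 to 0.26. Both averages covered opposite gaps, with deer minus cattle at 1.05 and 0.76 in the dry arrays and at -0.96 and -1.22 in the lactation arrays. With median centring the values over both states were 0.67 for S100A9, which passed (adjusted p = 0.0172 with limma), and 0.56 for S100A12, which turned in sign and did not. Deer arrays shared no slide with cattle, so species and slide cannot be told apart.

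The S100A12 probe over the calcium-binding loop, whose sequence is printed above, had very low ratios on all 8 deer arrays. Its log2 ratio was between -4.77 and -4.54 in dry deer and between -4.87 and -4.55 in lactating deer. In cattle it lay between -1.34 and 1.43. Its Cy5 signal was 3200 to 4839 units on the deer arrays against 41227 to 259754 on the cattle arrays, still well above background on each of the 24.

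Over both states the deer minus cattle difference on that probe was -4.43 with a standard error of 0.13 (21.5-fold), and it passed with limma (adjusted p = 1.55e-10). So did 60.5% of the 35431 tested probes in either direction. The comparison is not independent of the choice of genes, so nothing is read from the pass. On probes 1 and 2 of the same gene the deer minus cattle values were -0.23 and 0.01. Of the 35431 tested probes, 73 (0.206%) lay as low or lower in deer, and among 8227 genes with several tested probes, 50 (0.608%) had probes spread as widely as the 4.44 of S100A12, where the median spread was 0.52. The probe carries cattle sequence and no deer sequence was used here, so a lower transcript level and weaker binding of deer RNA to this stretch cannot be told apart from it alone. The S100A9 loop probe, which shares 15 of 30 loop bases, read 0.04 higher in deer than in cattle.

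On that probe the lactation minus dry difference in deer was -0.04 ± 0.23 (SD, n = 4 animals), while probes 1 and 2 gave -0.94 ± 1.21 and -0.80 ± 1.02. In PR cattle, where it was bright, it gave 0.82, close to the 0.85 and 0.87 of the others. Averaging the 3 probes would turn the S100A12 difference between deer and cattle into -1.55, which passed with limma (adjusted p = 6.8e-06), so the call for S100A12 there depends on the choice of probe. That comparison too is not independent of the choice of genes, and nothing is read from its pass.

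**Figure D2:**
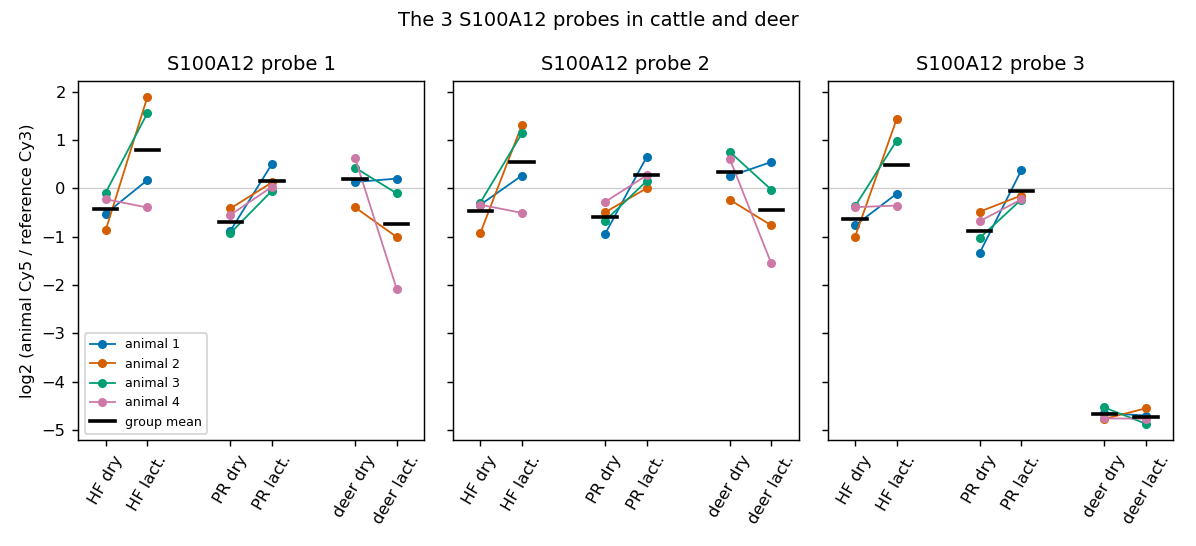
Log2 ratio of animal to reference on each array for the 3 S100A12 probes, drawn as for the 3 genes. On probes 1 and 2 deer and cattle overlap, with lactating deer 4 below all cattle at -2.08 and -1.55. Lactating deer 2 is also below all cattle on probe 1, at -1.01. Probe 3 puts all 8 deer arrays between -4.87 and -4.54.

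The probes were also set against each other over the arrays. Over the 16 cattle arrays, Pearson's r among the 5 bright probes was 0.90 to 0.98, and it was 0.52 to 0.70 between S100A9 probe 2 and the bright probes. Over the 8 deer arrays r was 0.91 to 0.99 among the bright probes apart from S100A12 probe 3, which gave -0.01 to 0.17 with them. These are descriptions over arrays that share animals and, through the difference between states, the pattern by which the genes were chosen. The spread between the 3 genes' differences between states within 1 animal was 0.11 to 0.64 in HF, 0.32 to 1.06 in PR and 0.13 to 0.47 in deer. In HF animal 4, PR animal 4 and deer 1 the genes differed in sign, with S100A9 at 0.47, -0.02 and -0.25 and S100A8 at -0.17, 0.70 and 0.22.

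Over the 8 cattle animals, each taken as its mean over both states, S100A8 with S100A9 gave r = 0.93 and a Spearman rho of 0.74. S100A8 with S100A12 gave 0.93 and 0.93, and S100A9 with S100A12 gave 0.89 and 0.67. These means hold the HF lactation arrays on which the genes were chosen and pool 2 breeds, so the values are a description, without a p. Without the 2 animals farthest from the median of the first gene, r was 0.62, 0.62 and 0.26 over 6 animals. Leaving out the most distant animals narrows the range of that gene, which by itself tends to lower r. How far the relations rest on those animals therefore cannot be told from these values. Each breed holds 4 animals, too few for a correlation of its own.

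The authors' deposited table of transcripts that differ between states in HF holds 437 probes, among them S100A9 probe 1 and S100A12 probe 3. Their deposited tables for PR and deer hold none of the 6. In the authors' deposited table the HF means of S100A9 probe 1 were -0.59 in the dry period and 0.84 in lactation, and those of S100A12 probe 3 were -0.15 and 1.01. Over the 24 arrays, the values of the authors' deposited table followed those computed here with r of 0.997 and 0.9996 and slopes of 1.02 and 0.99.

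Genes whose log2 ratio most resembled the mean of the 3 calgranulins were ranked over 14471 genes by the lower of their r over the 16 cattle arrays and over the 8 deer arrays. The first 10 were BCL6, CEBPD, CXCR1, TYROBP, SCARB1, NFAM1, TMEM120A, MAEA, RAB3IP and CHI3L1. BCL6, a transcriptional repressor, had r of 0.89 in both. CEBPD, a C/EBP transcription factor of myeloid cells, had 0.86 in cattle and 0.87 in deer, and CXCR1, an interleukin-8 receptor of neutrophils, had 0.86 and 0.91. TYROBP, a signalling adaptor of myeloid and NK cell receptors, had 0.86 and 0.93, and SCARB1, a receptor for high-density lipoprotein, had 0.87 and 0.84. CHI3L1, a chitinase-like protein stored in neutrophil granules, closed the list at 0.81 and 0.84. The lower r was over 0.8 in 14 genes and over 0.9 in 0, and the median r over all genes was 0.03 in cattle and -0.09 in deer.

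These 10 genes shared the direction of the calgranulins, on which their r partly rests. The mean lactation minus dry difference was 0.45 to 1.09 in HF, 0.09 to 0.72 in PR and -0.67 to -0.22 in deer. CXCR1 differed by 1.09 in HF, 0.60 in PR and -0.67 in deer.

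**Figure D3:**
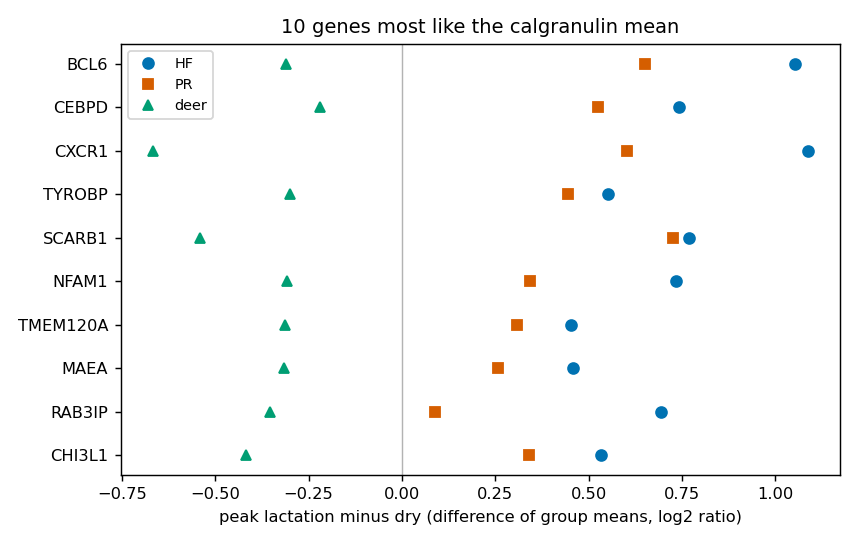
Difference of group means between peak lactation and dry period, on the log2 scale, for the 10 genes whose pattern over arrays was most like the calgranulin mean, in HF, PR and deer. In each gene the cattle values are above 0 and the deer value below it.

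Markers of neutrophils, the blood cells richest in calgranulins, were summarised in the same animals. The mean of 25 neutrophil markers ranged from -0.86 to -0.23 over the dry HF arrays and from -0.35 to 1.26 over the lactating ones, with per-animal differences of 0.22, 0.80, 1.49 and 0.14. In PR the range was -0.61 to -0.16 in the dry period and -0.34 to 0.07 in lactation, with differences of 0.67, 0.23, -0.18 and -0.08. In deer it was -0.30 to 0.02 and -0.52 to -0.09, with differences of -0.15, 0.01, -0.01 and -0.54. HF animals 2 and 3, PR animal 1 and deer 4 thus had the largest shifts both in the calgranulins and in the neutrophil markers of their group. The same animals also had the largest shifts in the monocyte markers, at 0.85, 0.54, 0.88 and -0.19. Within HF, animal 2 led in the calgranulins and animal 3 in the neutrophil markers. PR animal 1, with the bright dry array, also had the largest PR shift in T cell markers (0.43), B cell markers (0.28) and NK cell markers (-0.23). The same held for every list below that is not of a cell type, with 1.09 for the phagocyte NADPH oxidase. In platelet markers it had the largest PR rise, at 0.33, beside a fall of -0.44 in PR animal 3. Its shift was not the largest in markers of red cells or of eosinophils, basophils and mast cells. In PR animals 3 and 4 the neutrophil markers were slightly lower in lactation, while S100A8 was 1.01 and 0.70 higher and S100A12 0.88 and 0.58 higher. The monocyte markers of those animals were 0.32 and 0.37 higher. The part of these cell markers in the calgranulin differences was not tested. In RNA from mixed blood cells, more or fewer cells of a type and more or less RNA per cell cannot be told apart.

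**Figure D4:**
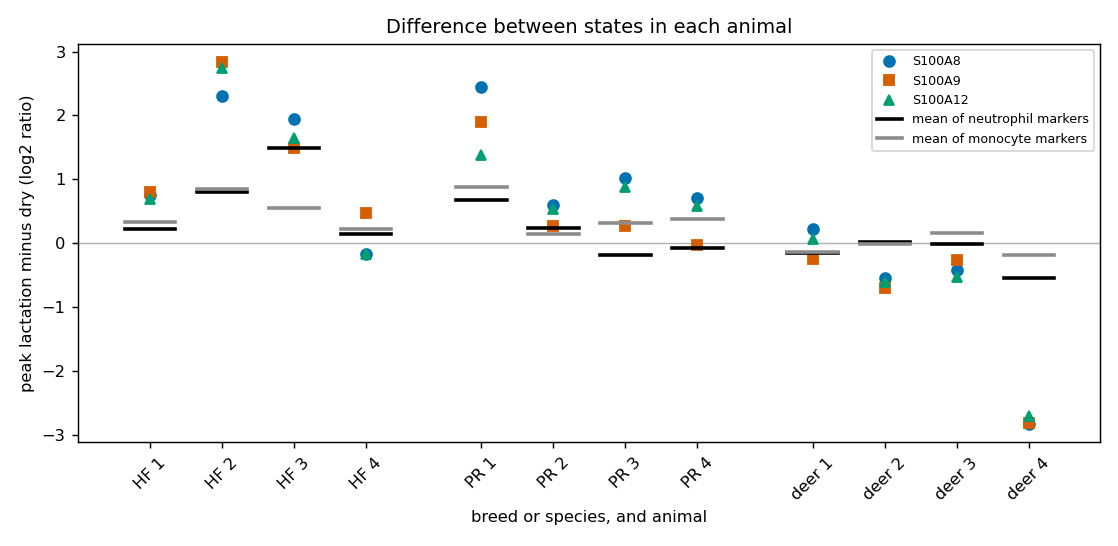
Peak lactation minus dry period, on the log2 scale, in each of the 12 animals for probe 1 of the 3 calgranulins (symbols) and for the mean of 25 neutrophil markers (black bar) and 12 monocyte markers (grey bar). HF 2, HF 3 and PR 1 lie highest and deer 4 lowest, and in HF 3 the neutrophil bar is level with S100A9.

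By gene, 23 of 25 neutrophil markers were above 0 in HF, with a median difference of 0.81, where the median over all tested probes was -0.0091. MMP9, a gelatinase of neutrophil granules, was 1.66 higher (adjusted p = 0.172 with limma) and CATHL2, a cathelicidin antimicrobial peptide, 1.30 higher (adjusted p = 0.716). The median was 0.14 in PR, with 17 of 25 above 0, and -0.14 in deer, with 7 of 24 above 0. CATHL2 differed by 0.02 in PR and by -1.44 in deer.

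Monocyte markers had medians of 0.59 in HF and 0.49 in PR, with 11 of 12 above 0 in each, and -0.02 in deer. FGL2, a fibrinogen-like protein of myeloid cells, differed by 0.68 in HF, 0.44 in PR and 0.02 in deer. Their per-array mean was -0.60 to -0.46 in dry HF and -0.26 to 0.29 in lactating HF, -1.01 to -0.58 and -0.50 to -0.13 in PR, and -0.48 to -0.12 and -0.43 to -0.31 in deer.

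The lymphocyte lists lay on the other side of 0 in HF. All 9 B cell and all 9 NK cell markers were lower in lactation there, with medians of -0.42 and -0.40, and 11 of 13 T cell markers with a median of -0.13. CD79A, part of the B cell receptor, differed by -0.64 in HF, 0.12 in PR and 0.13 in deer, and BLK, a B cell kinase, by -0.71, -0.25 and 0.04. GNLY, a cytotoxic granule protein, differed by -1.01, -0.08 and 0.30, and GZMB by -0.50, 0.59 and 0.30. Among T cell markers CD6 differed by -0.46 and ZAP70 by -0.30 in HF. In PR and deer the medians of the B, NK and T cell lists were between -0.07 and 0.04.

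Red cell markers had a median of 0.25 in HF, -0.07 in PR and -0.07 in deer, with HBB at 0.88, -0.55 and -3.02 and HBM at 0.61, 0.36 and -0.19. Platelet markers had medians of -0.06, -0.05 and -0.18, with PPBP at -0.76 and ITGA2B at -0.25 in HF. Eosinophil, basophil and mast cell markers had medians of -0.07, -0.03 and -0.06, with CCR3 at -0.63 and CPA3 at -0.20 in HF.

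As a list, the other S100 genes lay close to the median of all probes. Their 12 tested members had a median of 0.06 in HF, 0.06 in PR and -0.04 in deer, and the largest HF differences were -0.33 in S100A13 and 0.29 in S100A4. Among the calgranulin receptors and their partners, TLR4 differed by 0.76 in HF, 0.25 in PR and -0.47 in deer, and LY96, the protein through which TLR4 binds its ligands, by 0.65, 0.62 and -0.04. The receptor list's median was 0.10, 0.24 and -0.04. The list of regulators of calgranulin transcription had medians of 0.08, 0.05 and -0.10, with CEBPD at 0.74, 0.53 and -0.22 and SPI1, the factor PU.1, at 0.44, 0.10 and -0.23.

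Cytokines that induce calgranulins and their receptors had a median of 0.34 in HF, 0.12 in PR and -0.05 in deer. TNFRSF1A, a receptor for tumour necrosis factor, differed by 0.72, 0.43 and -0.40, and IL1B by 0.67, 0.47 and -0.05. In TLR4 and NF-kappaB signalling the medians were 0.19, 0.17 and -0.08, with NFKBIA, the inhibitor of NF-kappaB, at 0.60, 0.29 and 0.07 and MYD88, the adaptor of Toll-like receptors, at 0.52, 0.17 and -0.32. The subunits of the phagocyte NADPH oxidase, which calprotectin helps to activate, had medians of 0.11, 0.26 and 0.02, and NCF4 differed by 0.39, 0.36 and 0.02 and RAC1 by 0.26, 0.26 and -0.04.

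With limma none of the genes of the 14 lists passed the adjusted threshold in any of the contrasts, which is 0 of 147 tested in HF, 0 of 145 in PR and 0 of 148 in deer. At an unadjusted p of 0.05 the counts were 36 (24.5%), 12 (8.28%) and 5 (3.38%), against 7.78%, 5.71% and 9.07% of all tested probes in HF, PR and deer. These shares are in unlike units. Those of the lists count genes, each by its brightest probe that passed the filter, and the others count every tested probe. The lists were chosen with results of these data known, so these medians describe the lists and are no support for a direction.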

How the data were processed

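RNA from blood was measured on 24 two-colour Agilent cattle arrays, 4 per group, with Cy5 for the animal and Cy3 for the common reference on all of them. Each array's file gives spot intensity, per the file headers, as mean signal and median local background of either dye, with a log10 ratio of processed signals beside it. What the authors deposited as lists of selected probes are normalized log2 ratios; their centring is not given in the sources used here, and slopes near 1 against the values computed here fit a log2 scale of Cy5 over Cy3. Feature Extraction was version 10.10.1.1 per the file headers and 10.7.3.1 per the submitters' processing notes.

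Mean signals were corrected with normexp (offset 50), the log2 ratios adjusted by loess within each array with the 1417 control spots and outlier spots at weight 0, outlier spots left out and spots of a probe averaged. Gene names came from the files, updated through the reference table by accession for 26743 probes (16959 gene names for 34517 probes). limma 3.58.1 in R 4.3.3 (statmod 1.5.0, and data.table at version 1.17.8) fitted 6 group means over 24 arrays for the differences between states, and 3 means over 12 animal averages for breeds and species. Benjamini-Hochberg adjustment ran over all tested probes, with a threshold of 0.05. Since the study's text names an unpaired analysis of variance, the main fit carries no animal term. Per that text the same animals were bled in both states. With group means removed, both arrays of an animal correlated at more than 0.1 in every HF and deer animal and in 2 of 4 PR animals. In every HF animal, and in PR animals 1 and 4, both arrays shared a slide, so animal and slide cannot be told apart there. In deer the arrays of an animal lay on different slides. The steps were tested on simulated data. Figures used matplotlib 3.10.9 in Python 3.11.15.

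The members, lists and tests were chosen with earlier results of these data known. Named were every member probe, the 10 genes most like the members, and from each of the 14 lists any gene past the threshold, otherwise the 2 with the largest difference in HF. One gene that this rule names is not reported here. Alternatives were background correction, scaling, probe choice, filters, blocks for animal, slide, position and scan, and left-out arrays. Each array is 1 blood draw of 1 animal, and the number of animals limits the precision.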

Additional observations from a re-analysis of the deposited data

Results flagged for a closer look

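Of 54 sets of 4 values checked for a single distant sample (6 probes in 6 groups, and 6 probes' per-animal differences in 3 kinds of animal), 3 had one, and chance alone gives about 1 in 20. S100A12 probe 2 in dry HF had its lowest value, -0.93, in animal 2, far from the other 3 arrays. S100A12 probe 3 in lactating PR had its highest value, 0.37, in animal 1. The PR difference between states of S100A9 probe 1 was 1.90 in animal 1, whose dry array was the bright one. S100A9 probe 1 was higher in lactation in all 4 HF cows and lower in all 4 deer, with mean differences 2.41 apart; the genes were chosen for this contrast and the gap was not tested.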

How the results depend on the processing

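The differences between states in HF, PR and deer kept their direction for S100A8, S100A9 and S100A12 under each alternative that was run, and those in PR did not pass with limma in any (adjusted p 0.239 to 1.00), also with the animal as a block (adjusted p = 0.667, 0.778 and 0.687). For S100A12 in PR (0.85) the exact permutation test over 8 arrays gave an unadjusted p of 0.0286, and the one within animals, added after the data were seen, 0.125. Leaving out single arrays gave 0.82 to 1.60, 1.12 to 1.65 and 0.87 to 1.63 for S100A8, S100A9 and S100A12 in HF, 0.94 to 1.47, 0.34 to 0.73 and 0.73 to 0.94 in PR, and -1.15 to -0.47, -1.23 to -0.64 and -1.26 to -0.50 in deer. The omission of deer animal 4 and of PR animal 1 was added after the data were seen.

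HF minus PR in S100A8, which is not independent of the choice of genes, passed under median centring (1.05, adjusted p = 0.0419 with limma) and under none of the others. That of S100A9 was -0.022 without HF animals 2 and 3, -0.11 in the dry arrays and 0.69 in the lactation arrays. Leaving out single animals gave 0.41 to 0.86, 0.12 to 0.44 and 0.28 to 0.63 for the 3 genes. With the animal as a random block over 24 arrays (estimated correlation 0.05) the adjusted p-values were 0.337, 0.686 and 0.502.

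Deer minus cattle is likewise not independent of the choice of genes. In S100A8 it was -0.40 under median centring, 0.044 in the dry and -2.05 in the lactation arrays. Without single animals it was -1.14 to -0.87 (adjusted p at most 0.0155 with limma). S100A9 was 0.67 under median centring, 1.05 in dry and -0.96 in lactation arrays, and -0.05 to 0.14 without single animals, turning to -0.032 without HF animal 1, -0.016 without deer animal 1 and -0.054 without deer animal 3. S100A12 was 0.56 under median centring, -1.55 as the mean of its probes, 0.76 in dry and -1.22 in lactation arrays, and -0.38 to -0.08 without single animals. The cause of these shifts was not tested.

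Between HF and PR 2124 probes were called, against 8635 with median centring, 3554 without background correction, 3292 with the replicate block, 3 with Cy5 alone, 1 without HF animals 2 and 3, and 318 to 2632 without single animals. Between deer and cattle the count was 21429, and 17916 to 26097 under the alternatives. Called between states were 0 to 4 probes in HF, 0 in PR and 0 to 63 in deer.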
